A study of Mus musculus with 13 samples.

Results

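Immediate early genes are transcribed within minutes of a signal, without new protein synthesis, from promoters on which the needed factors already sit. Fos, Fosb, Jun and Junb encode subunits of the dimeric factor AP-1, Egr1 encodes a zinc finger factor, Atf3 a stress-induced factor of the ATF family and Ier2 a small nuclear protein. Hspa1a and Hspa1b encode the inducible HSP70 chaperones and Dnajb1 encodes an HSP40 co-chaperone. All 3 are targets of the heat shock factor HSF1. Both groups are known to rise when tissue is cut, warmed and digested with enzymes, which is why they are often read as a sign of dissociation in single-cell data. The 10 genes were taken by symbol out of 27998 genes, 7 as immediate early genes and 3 as heat shock genes, and all 10 were detected in every library.

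The data were single-cell RNA sequencing counts of wild-type C57Bl/6J mice, with no treatment and no genetic change in any group. Whole embryos without head and limbs were taken at E8.5 (1 library, replicate 2) and E10.5 (2 libraries), and hearts at E12.5, E14.5 and E16.5 (2 libraries each) and at postnatal day 3 (P3, 1 matrix). Barcodes of the P3 matrix end in a suffix, 1 or 2, and are given here as those of well 1 and well 2, which no source ties to a sample record, so P3 counts as 1 sample. The replicate 1 matrix of E16.5 pools 2 sample records. The series text calls the 2 libraries of a period biological replicates without naming the animals, so p-values cover the spread between libraries, which may be technical in part. The sample titles give both libraries of a stage the same replicate number. The replicate numbers used here come from the library names in those titles. The labels name trypsin and the paper collagenase II as the enzyme, and each stage was prepared apart, so that stage and preparation cannot be told apart. No undissociated tissue was analysed, and what the tissue held and what the preparation added cannot be told apart.

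Kept were barcodes with at least 2000 unique molecular identifiers (UMIs, 1 per captured transcript) and at least 1% of UMIs from mitochondrial genes, 67411 in all. Kept barcodes numbered from 3984 to 12132 per matrix, with medians of 10457 to 25970 UMIs counting each P3 well by itself. Barcodes were put into classes by 1 gate gene each, a cardiomyocyte gene (Tnnt2), an endothelial gene (Cdh5), a collagen of fibroblasts and mesenchyme (Col1a1) and a macrophage complement gene (C1qa). In every heart sum of at least 10 barcodes the markers of the gate's own cell type were higher than in any sum of the other 3 classes. Each of these marker lists holds the gate gene itself, so part of this difference was fixed by the gating. Cardiomyocyte markers summed to at least 29656 CPM (UMIs scaled to a common total, the usual CPM unit) in Tnnt2-gated barcodes and to at most 1371 CPM in the other classes, and macrophage markers to at least 12456 CPM in C1qa-gated barcodes and at most 60.3 CPM in the others. C1qa-gated barcodes were few, with 13 and 8 per library at E12.5, 52 and 39 in the E14.5 libraries, 47 and 36 in those of E16.5 and 70 and 86 in P3 wells 1 and 2. Barcodes in no class had median mitochondrial shares of 89.5 and 88.2% at E16.5, and they enter only the sums over all kept barcodes. Pairs of libraries shared at most 181 barcode sequences, where 193.1 were expected for that pair.

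The promoters of 8 of the 10 genes are in the RefSeq windows used here (build GRCm38.p6), while Egr1 and Ier2 have no entry. The stretches before the transcription start are shown for the pair Hspa1a and Hspa1b, because both genes rose together. Those of Fos, Jun and Atf3 are shown because they hold some of the elements through which such genes are known to be switched on. Hspa1a (chr17:34969190-34972156) and Hspa1b (chr17:34956436-34959238) are single-exon genes on the minus strand, 9951 bases apart in GRCm38. The lines give the 150 bases before each start, chr17:34972157-34972306 and chr17:34959239-34959388, with a heat shock element pair (GAANNTTC) in capitals.
Hspa1a: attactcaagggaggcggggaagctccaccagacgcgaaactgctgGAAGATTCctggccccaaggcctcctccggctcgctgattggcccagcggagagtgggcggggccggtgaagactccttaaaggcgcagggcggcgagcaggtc
Hspa1b: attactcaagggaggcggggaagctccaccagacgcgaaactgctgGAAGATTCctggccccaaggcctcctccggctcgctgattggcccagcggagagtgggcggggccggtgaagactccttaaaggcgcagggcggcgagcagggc

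Over the 250 bases before the start the pair differed at 3 bases, and the element begins 104 bases before the start in both. GAANNTTC or TTCNNGAA, read on both strands, is in 12.8% of 32851 mouse promoter windows of this length, so a match describes the window and is not a site. The open reading frames of 1926 and 1929 bases differed by 10 single-base changes, insertions or deletions. Reads from the ends of the transcripts can still be told apart, since none of the 411 stretches of 90 bases in the last 500 bases of either transcript occurs in the other one.

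For Fos (plus strand, chr12:85473790-85473889), Jun (minus strand, chr4:95052223-95052322) and Atf3 (minus strand, chr1:191183334-191183433) the 100 bases before the RefSeq start are given. The Atf3 start lies inside the annotated gene, which reaches further upstream. Motifs were read on both strands. Capitals mark the core of a cyclic AMP response element (TGACGT or ACGTCA, in 6.47% of windows) and a TATA box (TATAAA or TTTATA, 12.4%) in Fos, the Jun site (TGACATCA or its reverse complement, 2.93%) in Jun, and the response element core in Atf3.
Fos: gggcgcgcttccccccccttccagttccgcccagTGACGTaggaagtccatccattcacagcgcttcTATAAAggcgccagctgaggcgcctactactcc
Jun: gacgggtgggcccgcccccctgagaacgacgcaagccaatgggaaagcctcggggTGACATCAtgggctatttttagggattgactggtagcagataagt
Atf3: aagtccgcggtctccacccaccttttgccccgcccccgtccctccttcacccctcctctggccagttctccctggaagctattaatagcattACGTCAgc

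The Jun window also holds GAATCTTC, which begins 128 bases before the start. The windows of Fosb, Junb and Dnajb1 hold none of these letters, and none of the 8 windows holds the AP-1 motif TGANTCA (6.75% of windows) or a CArG box (1.47%). Only the 250 bases before each start were read, so elements further upstream would be missed, and Egr1 and Ier2 could not be read. In GRCm38 Fos lies at chr12:85473890-85477273, Fosb at chr7:19302696-19310051, Jun at chr4:95049034-95052222, Junb at chr8:84974484-84978718, Atf3 at chr1:191170296-191218039, Ier2 at chr8:84661331-84662852 and Dnajb1 at chr8:83608193-83612653. Jun, Junb and Ier2 are single-exon genes like the HSP70 pair. Jun, Junb, Atf3 and Hspa1a overlap a gene on the other strand (Junos, Prdx2, Gm24748 and Gm20481). The authors' pipeline tallied reads antisense to a gene apart.

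Over all kept barcodes the AP-1 genes were lowest in the embryos, higher in the embryonic hearts and highest in P3 well 2. Fos was at 6.32 CPM at E8.5, 23.5 and 22.9 CPM at E10.5, 175 and 184 CPM at E12.5, 234 and 230 CPM at E14.5, 324 and 321 CPM at E16.5, and 327 and 915 CPM in P3 wells 1 and 2. The replicates of each stage lay closer together than neighbouring stages, and P3 well 1 lay at the E16.5 level while well 2 lay far above it. Junb took the same order, with 3.59 CPM at E8.5, 60.7 and 57.9 CPM at E12.5, 87.5 and 92.5 CPM at E16.5, and 108 and 330 CPM in the wells. Fosb ran from 1.31 CPM at E8.5 to 38.2 and 40.5 CPM at E16.5 and 171 CPM in well 2. Jun ran from 17.2 CPM at E8.5 to 144 and 157 CPM at E16.5 and 522 CPM in well 2.

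The other immediate early genes were likewise lower in the embryos than in the embryonic hearts and highest in P3 well 2, but by CPM they were not highest at E16.5 among the embryonic hearts. With TMM scaling, which adjusts totals for composition and is not part of CPM here, their log2 fold changes from E14.5 to E16.5 were 0.12 for Egr1, 0.11 for Atf3 and 0.17 for Ier2. Egr1 was at 2.23 CPM at E8.5, 229 and 216 CPM at E14.5, 210 and 213 CPM at E16.5, 79.9 CPM in well 1 and 290 CPM in well 2, so that well 1 lay under every heart library of the embryo. Ier2 was already at 63.2 CPM at E8.5, stood at 135 and 128 CPM at E12.5 and 118 CPM in both libraries of E16.5, and reached 67.4 and 203 CPM in the wells. Atf3 was at 3.52 CPM at E8.5, 39.1 and 38.6 CPM at E12.5 and 28.7 and 31.9 CPM at E16.5, with 40.9 and 113 CPM in the wells. The 7 genes together made up 97.4 CPM at E8.5 and 171 and 170 CPM at E10.5, a ratio of 1.75. Embryos and hearts differ in tissue as well as in stage, and these values were not tested.

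The HSP70 genes had the widest range. Hspa1a was at 0.366 CPM at E8.5, 0.537 and 0.568 CPM at E10.5, 1.57 and 1.74 CPM at E12.5, 11.03 and 10.8 CPM at E14.5, 25.4 and 26.4 CPM at E16.5, and 21.2 and 123 CPM in the P3 wells. The embryonic heart stages did not overlap. Hspa1b was at 0.233 CPM at E8.5, 0.537 and 0.474 CPM at E10.5, 0.331 and 0.346 CPM at E12.5, 2.56 and 2.43 CPM at E14.5, 6.22 and 5.97 CPM at E16.5 and 9.59 and 52.3 CPM in the wells. Dnajb1 stayed between 42.6 and 49.6 CPM in all 9 embryonic libraries, and stood at 28.4 and 60.7 CPM in the wells.

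**Figure D1:**
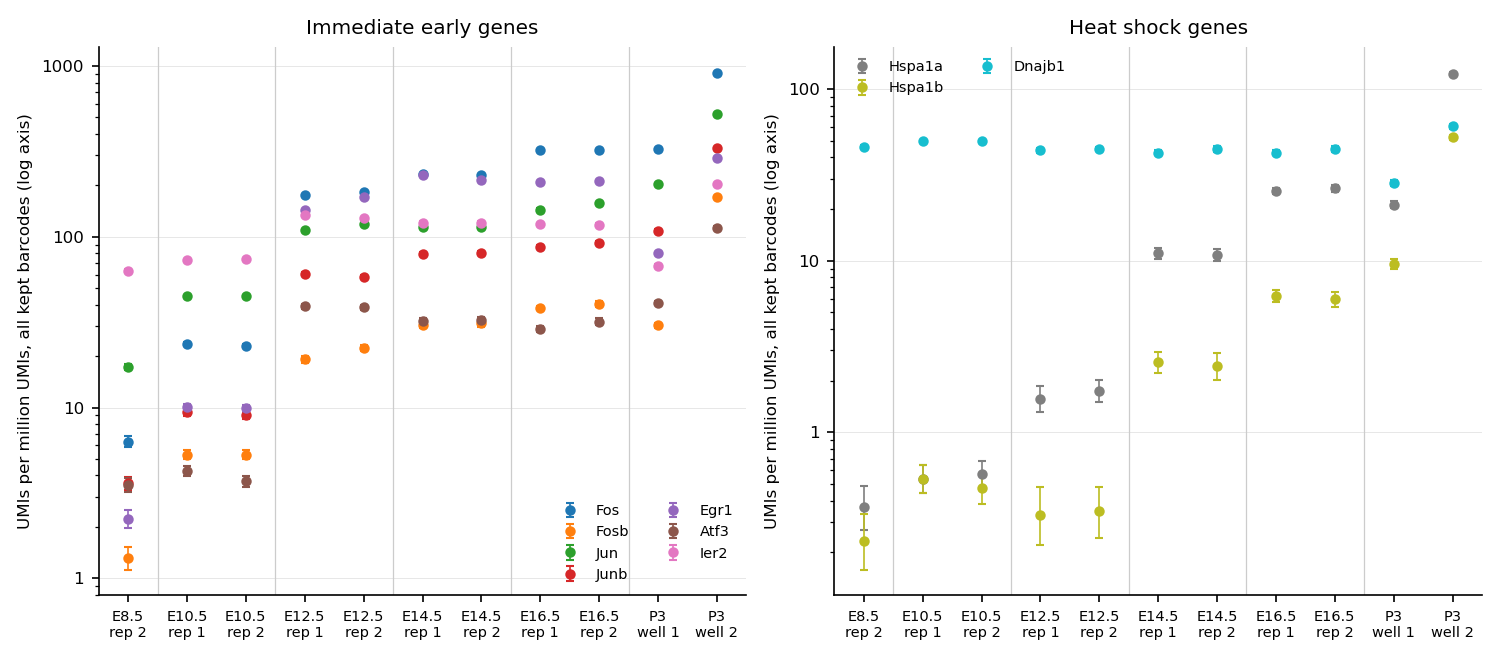
Level of each gene (CPM of all kept barcodes, log axis) in each library and P3 well; bars are exact 95% intervals of the counts and cover counting error only. Hspa1a climbs from 1.57 and 1.74 CPM at E12.5 to 25.4 and 26.4 CPM at E16.5, Dnajb1 stays between 42.6 and 49.6 CPM before birth, and every gene is higher in well 2 than in well 1 of P3.

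Successive heart stages were compared in a fit over the 6 embryonic heart libraries with edgeR's quasi-likelihood test and Benjamini-Hochberg adjustment. From E12.5 to E14.5, 7 of the 10 genes changed, 6 higher and 1 lower, beside 47.0% of all 15655 genes tested (23.7% higher and 23.3% lower). Hspa1a rose by 2.69 ± 0.08 on the log2 scale (standard error, adjusted p = 9.14e-09) and Hspa1b by 2.85 ± 0.15 (adjusted p = 2.98e-07). Fos, Fosb, Junb and Egr1 rose by 0.35 to 0.54, and Atf3 fell by 0.30 ± 0.06 (adjusted p = 0.00213), a call lost when barcodes were thinned to 2000 UMIs each (adjusted p = 0.116). Jun, Ier2 and Dnajb1 did not pass. Ier2, at -0.16 (adjusted p = 0.0601), passed with replicate number as a block (adjusted p = 0.0291) and without E12.5 replicate 2 (adjusted p = 0.0096).

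From E14.5 to E16.5, 8 of the 10 genes passed, and all 8 were higher at E16.5, beside 39.5% of all genes (21.3% higher and 18.2% lower). Hspa1a rose by 1.44 ± 0.07 (adjusted p = 7.77e-08), Hspa1b by 1.49 ± 0.11, Fos by 0.68 ± 0.06 (adjusted p = 9.58e-06) and Jun by 0.60 ± 0.06. Egr1 and Atf3 did not pass. The call of Ier2, at 0.17, was lost when any 1 of the 4 libraries was left out (adjusted p = 0.104 to 0.25), with DESeq2, with no low-count filter, without the 5% of barcodes with most UMIs, after thinning and under the study's mitochondrial ceilings (adjusted p = 0.064, 0.0691, 0.0902, 0.135 and 0.251, with a value of 0.09 under the ceilings), and without TMM scaling its value was -0.030. Dnajb1, at 0.20, was likewise not called without any 1 of these 4 libraries or after thinning (0.11, adjusted p = 0.413), and without TMM scaling its value was 6.76e-05. Every sum over a whole library mixes classes whose shares change, with Tnnt2-gated barcodes rising from 44.0 and 45.2% at E12.5 to 66.0 and 68.4% at E16.5.

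At E14.5 and E16.5 the AP-1 genes were lowest in Tnnt2-gated and highest in C1qa-gated barcodes. Fos at E16.5 was at 98.7 and 105 CPM in Tnnt2-gated, 710 and 627 CPM in Cdh5-gated, 1271 and 1359 CPM in Col1a1-gated and 1917 and 2581 CPM in C1qa-gated barcodes. No class overlapped another. Junb at E16.5 was at 18.4 and 20.9 CPM in Tnnt2-gated barcodes against 341 and 317 CPM in Cdh5-gated and 262 and 309 CPM in Col1a1-gated barcodes. In C1qa-gated barcodes it was at 782 and 1130 CPM.

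Each class was tested against the mean of the other 3, averaged over E14.5 and E16.5, the stages at which every class had at least 10 barcodes in both libraries. Against the other classes, Tnnt2-gated barcodes were lower in 9 of the 10 genes, beside 62.7% of all 14664 genes called (39.5% higher and 23.1% lower). Junb was lower by 13.7-fold (log2 fold change -3.77 ± 0.08, adjusted p = 1.78e-26), Ier2 by 7.79-fold and Fos by 6.98-fold. Dnajb1 was lower by 1.37-fold, and Hspa1a by 1.53-fold, a call that was lost after thinning (adjusted p = 0.544).

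C1qa-gated barcodes were higher in 9 genes, beside 42.9% of all genes called (17.7% higher and 25.2% lower). Atf3 stood furthest out, with 489 and 658 CPM at E16.5 against 21.1 to 58.9 CPM in the other classes. It was 14.53-fold above the mean of the others (log2 fold change 3.86 ± 0.09, adjusted p = 7.19e-25), where Fos was 4.72-fold and Egr1 2.17-fold higher. The mean of the others holds the low Tnnt2-gated level. Egr1 at E16.5 was at 391 and 783 CPM in C1qa-gated barcodes, on both sides of the Col1a1-gated 530 and 549 CPM. At E14.5 it was at 542 and 658 CPM, above the Col1a1-gated 459 and 457 CPM. The calls of Hspa1a and Dnajb1 in this class were lost after thinning (adjusted p = 0.77 and 0.645). That of Dnajb1 was also lost without replicate 1 of E14.5 or of E16.5 (adjusted p = 0.102 and 0.124).

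Col1a1-gated barcodes were higher in 6 genes and lower in 3, beside 55.7% of all genes called (32.2% higher and 23.5% lower). Fos was 2.09-fold, Fosb 1.87-fold, Ier2 1.56-fold and Egr1 1.52-fold higher, whereas Atf3 was 1.61-fold and Hspa1a 2.43-fold lower (adjusted p = 4.69e-10 and 8.14e-08). The mean of the others holds the high C1qa-gated level. Atf3 was at 42.2 to 58.9 CPM in Col1a1-gated barcodes of E14.5 and E16.5, above the 21.1 to 27.3 CPM of Tnnt2-gated and the 20.8 to 33.8 CPM of Cdh5-gated barcodes. Hspa1a at E16.5 was at 25.03 and 19.4 CPM in Col1a1-gated barcodes, about the Tnnt2-gated level of 22.0 and 24.4 CPM. At E14.5 it was at 9.45 and 6.39 CPM in Col1a1-gated barcodes, under the Tnnt2-gated 10.4 and 10.6 CPM. The lower level of Hspa1a was not called after thinning (adjusted p = 0.171), nor was that of Dnajb1 (adjusted p = 0.475), which was also lost without replicate 1 of E14.5 or of E16.5 (adjusted p = 0.179 and 0.124) and without TMM scaling (-0.09, adjusted p = 0.277). Cdh5-gated barcodes passed in 7 genes, beside 48.5% of all genes (30.6% higher and 17.9% lower), with 3 higher and 4 lower, and the third higher one, Hspa1b, was not called after thinning or without either E14.5 library (adjusted p = 0.245, 0.11 and 0.123). Junb and Ier2 were 1.37-fold and 1.33-fold higher, and Atf3 was 3.04-fold lower (adjusted p = 2.87e-17) against a mean that holds the 350 to 658 CPM of C1qa-gated barcodes. At E16.5 Cdh5-gated Atf3, at 31.4 and 33.8 CPM, lay above the Tnnt2-gated 21.1 and 23.4 CPM, whereas at E14.5 it was at 20.8 and 26.9 CPM against 27.04 and 27.3 CPM. Hspa1a was at 0.15 ± 0.13 on the log2 scale (adjusted p = 0.386) and was called higher without E16.5 replicate 1 (0.47, adjusted p = 0.000837). No fold is given for Hspa1b between classes, because C1qa-gated barcodes held 0 of its UMIs in 3 of the 4 libraries of E14.5 and E16.5. Without E16.5 replicate 1 Hspa1b was called higher in Tnnt2-gated and lower in C1qa-gated barcodes. With DESeq2 it was called lower in Col1a1-gated barcodes (adjusted p = 0.00819).

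**Figure D2:**
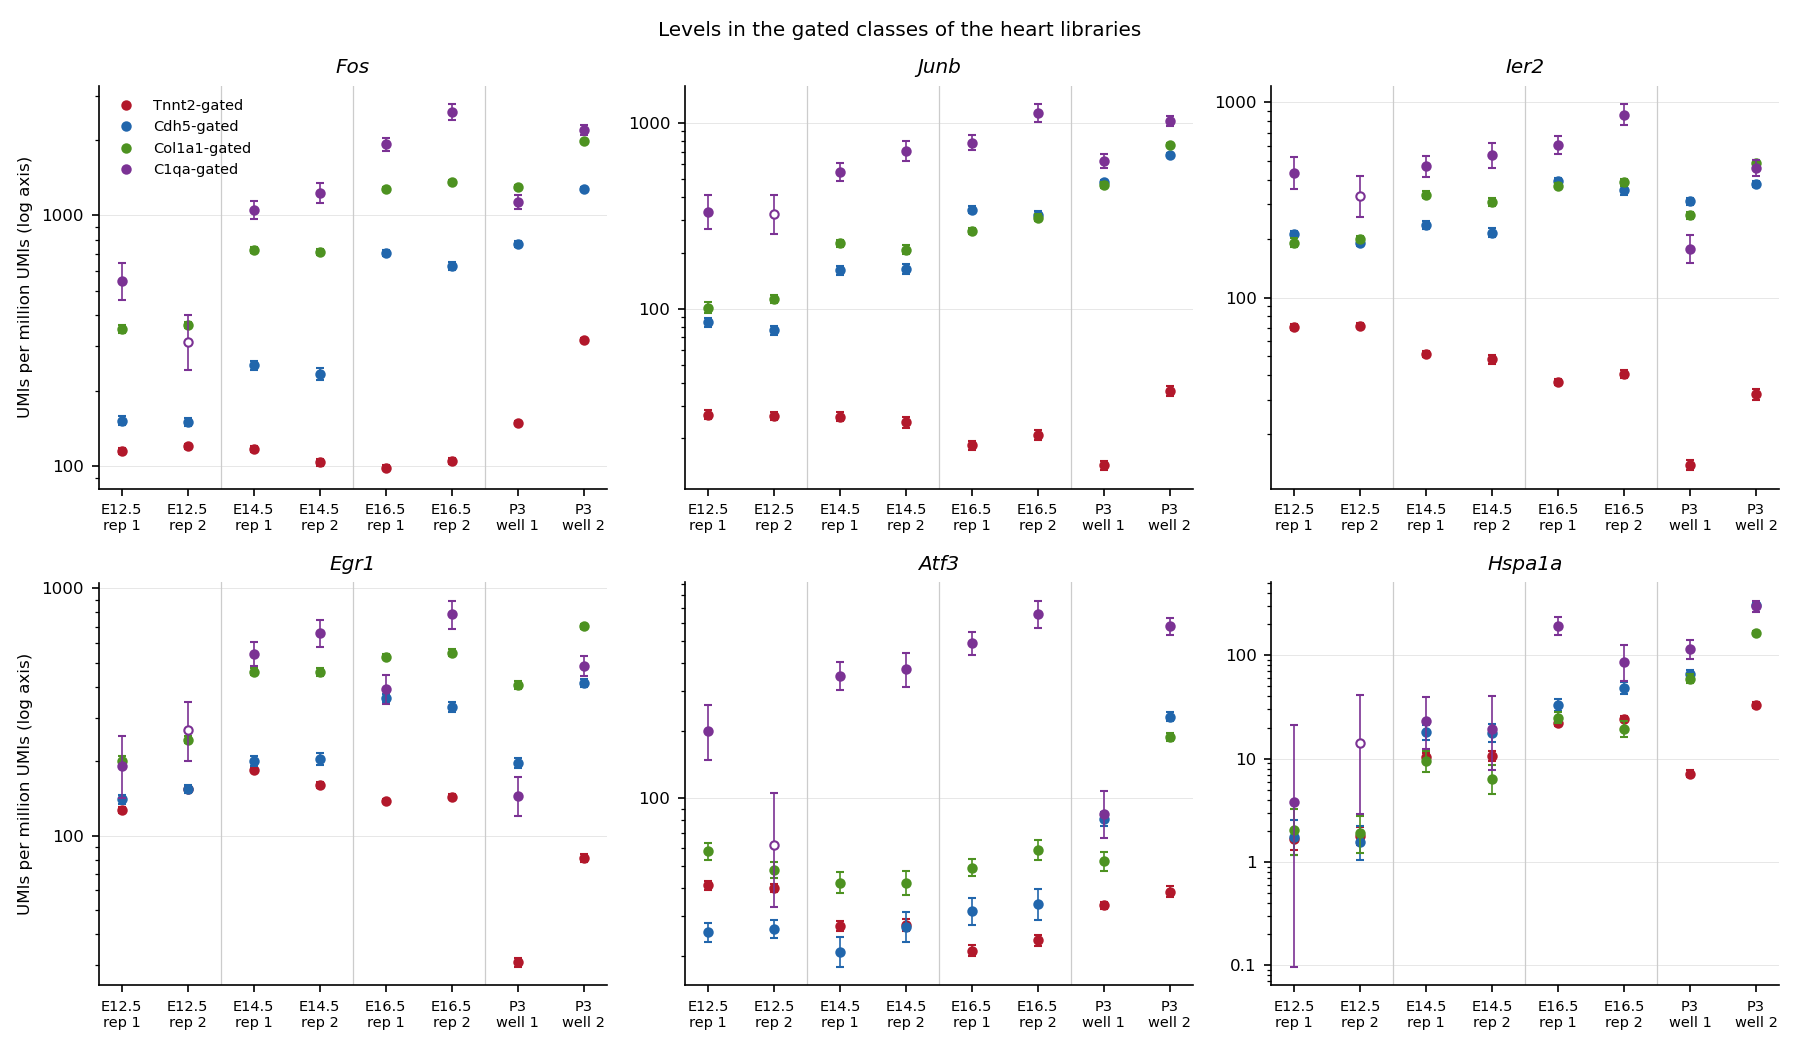
Levels of 6 of the genes in the 4 gated classes of each heart library and P3 well (CPM of the class, log axis; bars are exact 95% intervals of the counts; the open symbol is the class of 8 barcodes). Tnnt2-gated barcodes lie lowest for Fos, Junb and Ier2 throughout. At E14.5 and E16.5 Atf3 stands apart in C1qa-gated barcodes, with 489 and 658 CPM at E16.5. In P3 well 1 it does not, with 85.6 CPM in C1qa-gated against 80.9 CPM in Cdh5-gated barcodes.

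The change with stage also depended on the class. From E12.5 to E16.5 Fos in Col1a1-gated barcodes went from 352 and 366 CPM through 726 and 713 CPM to 1271 and 1359 CPM. In Cdh5-gated barcodes it went from 152 and 150 CPM through 252 and 233 CPM to 710 and 627 CPM. In Tnnt2-gated barcodes it was at 115 and 120 CPM at E12.5, 117 and 104 CPM at E14.5 and 98.7 and 105 CPM at E16.5, and the 3 stages ran close together there.

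In Cdh5-gated barcodes 8 of the 10 genes rose from E12.5 to E16.5 and none fell, beside 37.8% of all genes called (18.7% higher and 19.1% lower). Fos rose 4.19-fold (2.07 ± 0.10 on the log2 scale, adjusted p = 1.82e-15), Fosb 4.08-fold, Junb 3.87-fold, Egr1 2.21-fold, Jun 2.20-fold and Ier2 1.76-fold. Malat1, a nuclear RNA often read as a sign of RNA quality, went with these stages from 5663 and 7351 CPM at E12.5 to 14678 and 17374 CPM at E16.5 in Cdh5-gated, from 7726 and 9792 to 16376 and 17841 CPM in Col1a1-gated and from 4587 and 5896 to 11364 and 13754 CPM in Tnnt2-gated barcodes, and its part in the changes was not tested. In Col1a1-gated barcodes 9 genes rose, beside 36.5% of all genes called (19.7% higher and 16.8% lower), with Fosb at 4.58-fold, Fos at 4.10-fold, Junb at 2.98-fold and Ier2 at 2.19-fold. Atf3 passed in neither class, with log2 fold changes of 0.25 ± 0.12 and 0.19 ± 0.10 (adjusted p = 0.111 and 0.158). It was called higher in Cdh5-gated barcodes with 2-fold higher gates (adjusted p = 0.0315), and in Col1a1-gated barcodes without E12.5 replicate 1 (adjusted p = 0.0299) or without the 5% of barcodes with most UMIs (adjusted p = 0.0452).

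In Tnnt2-gated barcodes 5 genes passed, beside 53.5% of all genes (26.7% higher and 26.8% lower), with 3 higher and 2 lower, or 2 higher and 3 lower without TMM scaling. Atf3 was lower at E16.5 by 1.56-fold (log2 fold change -0.64 ± 0.09, adjusted p = 5.95e-07) and Ier2 by 1.57-fold (-0.65 ± 0.10). The median mitochondrial share of this class went from 6.56 and 6.98% at E12.5 to 10.9 and 11.3% at E16.5. Its part in these changes was not tested. Fos and Fosb had log2 fold changes of 0.02 ± 0.10 and -0.01 ± 0.10 (adjusted p = 0.849 and 0.93). Jun and Egr1, at 0.21 ± 0.10 and 0.23 ± 0.13, did not pass here, but 6 settings called Jun and 7 called Egr1 higher, among them the mitochondrial ceilings of the study (adjusted p = 0.00763 and 0.00386) and the fit without E12.5 replicate 2 (adjusted p = 0.022 and 0.036). Jun was also called without E16.5 replicate 1 (adjusted p = 0.0474). Junb, at -0.21 ± 0.11, was called lower in 4 settings, among them the fit without E16.5 replicate 2 (adjusted p = 0.0499).

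In C1qa-gated barcodes 8 genes were higher at E16.5, beside 2.32% of all genes called (1.55% higher and 0.764% lower). The E12.5 arm is 1 sum of 13 barcodes, which was assumed to vary like the other groups. Fos rose 4.64-fold (2.21 ± 0.16, adjusted p = 6.47e-10), Junb 3.20-fold and Atf3 3.21-fold. These folds rest on replicate 1 of E12.5. The 8 barcodes of replicate 2, which were not fitted, held 314 CPM of Fos against 547 CPM in replicate 1, 323 against 333 CPM of Junb and 61.8 against 199 CPM of Atf3. After thinning the calls of Atf3, Ier2 and Hspa1a were lost (adjusted p = 0.457, 0.608 and 0.193), with log2 fold changes of 1.36 for Atf3 (1.68 before) and 0.95 for Ier2 (0.91 before). Dnajb1 was not called here (adjusted p = 0.151) but was without E16.5 replicate 2 (adjusted p = 0.0403). Malat1 in this class went from 3418 CPM in replicate 1 of E12.5 to 11884 and 14297 CPM at E16.5. No fold is given for Fosb and Hspa1a, which rest on 2 and 1 UMIs at E12.5 in this class.

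Whether the change over the stages differed between classes was tested as 1 interaction over all 4 classes and the stages E12.5, E14.5 and E16.5. It passed in 8 of the 10 genes, beside 41.5% of all genes, with adjusted p = 7.99e-12 for Fos, 1.35e-11 for Fosb, 1.53e-10 for Junb and 4.6e-10 for Ier2. Hspa1a passed at adjusted p = 0.0414 and lost the call in 6 settings, with adjusted p from 0.0715 to 0.267. These were the thinned barcodes, the 2-fold higher gates, the fit without the C1qa-gated sums (adjusted p = 0.0865) and those without E12.5 replicate 2, E14.5 replicate 1 and E14.5 replicate 2 (adjusted p = 0.0825, 0.144 and 0.24). Dnajb1 passed with library as a block (adjusted p = 0.0334) and not without it (adjusted p = 0.125). Without E16.5 replicate 2 both Dnajb1 and Hspa1b passed (adjusted p = 0.0436 and 0.00333). Hspa1b also passed with DESeq2, with no low-count filter and without the 5% of barcodes with most UMIs (adjusted p = 0.0234, 0.00736 and 0.035).

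**Figure D3:**
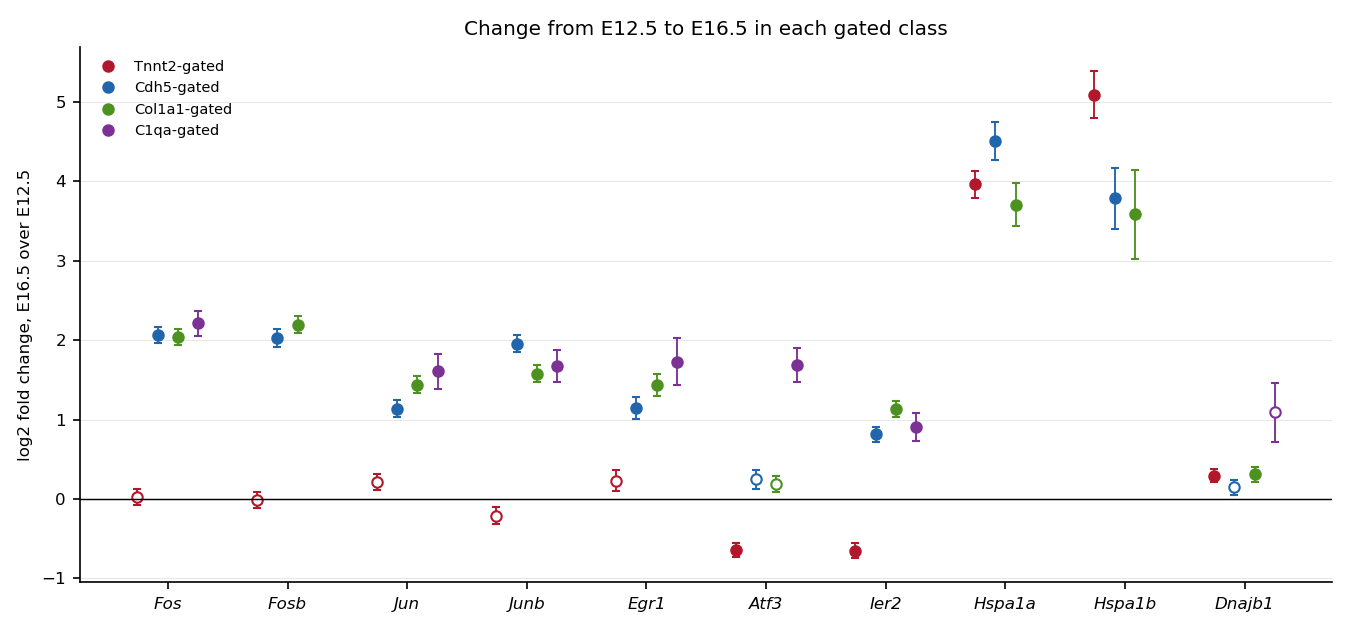
Log2 fold change of E16.5 over E12.5 in each gated class, with its standard error; filled symbols passed an adjusted p of 0.05, and Fosb, Hspa1a and Hspa1b are left out for C1qa-gated barcodes. Fos sits at 0.02 in Tnnt2-gated barcodes and at 2.04 to 2.21 in the other classes, while Hspa1a sits between 3.71 and 4.50 in the classes shown for it.

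Hspa1a and Hspa1b rose in the cardiomyocyte, endothelial and mesenchymal classes. In Tnnt2-gated barcodes Hspa1a was at 1.67 and 1.79 CPM at E12.5, 10.4 and 10.6 CPM at E14.5 and 22.0 and 24.4 CPM at E16.5, a rise of 15.6-fold (3.96 ± 0.17 on the log2 scale, adjusted p = 2.29e-17). At E12.5 the 3 classes held 1.57 to 2.02 CPM of Hspa1a, under the 2.65 and 4.45 CPM (25 and 50 UMIs) of the globin-gated barcodes described further on. At E16.5 globin-gated barcodes held 0.284 and 0.125 CPM, from 3 and 1 UMIs. Barcodes of no class with under 1% mitochondrial UMIs had median globin shares of 79.9 and 77.9% at E12.5 and 96.3 and 96.6% at E16.5. A larger globin share lowers the CPM of other genes, so these stages cannot be compared directly. Barcodes with at most 100 UMIs held 2.57 and 2.04 CPM at E12.5 and 22.5 and 21.9 CPM at E16.5. The part of free RNA in these levels was not tested. The rise was 22.7-fold in Cdh5-gated barcodes (4.50 ± 0.24) and 13.0-fold in Col1a1-gated barcodes (3.71 ± 0.27). Hspa1b rose by 5.09 ± 0.29, 3.79 ± 0.38 and 3.59 ± 0.56 on the log2 scale in the same 3 classes, from 8 and 12, 9 and 12, and 3 and 4 UMIs in the E12.5 libraries. In Cdh5-gated barcodes the rise of Hspa1b was not called after thinning (adjusted p = 0.0744).

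The co-chaperone gene Dnajb1 moved far less. It was at 35.6 and 39.0 CPM at E12.5 and 38.0 and 40.2 CPM at E16.5 in Tnnt2-gated barcodes, with a log2 fold change of 0.29 ± 0.08 (adjusted p = 0.00281) that was 0.07 without TMM scaling (adjusted p = 0.507). In Col1a1-gated barcodes its change was 0.31 ± 0.10 (adjusted p = 0.0114), which was not called after thinning, without E12.5 replicate 2, without E16.5 replicate 2 or without TMM scaling (adjusted p = 0.991, 0.0766, 0.0695 and 0.256). In Cdh5-gated barcodes it was 0.15 ± 0.09 (adjusted p = 0.226, and 0.033 with DESeq2).

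The share of Hspa1b among the UMIs of the HSP70 pair is given as a description. It was 39.0% at E8.5 and 50 and 45.5% at E10.5, from 30, 112 and 96 UMIs of Hspa1b. Over all kept barcodes the 2 libraries of E12.5 had shares of 17.4 and 16.6%, those of E14.5 18.8 and 18.3%, those of E16.5 19.7 and 18.5%, and P3 wells 1 and 2 had 31.1 and 29.9%. The exact intervals of these 6 embryonic heart libraries overlapped. In Tnnt2-gated barcodes it was 9.76 and 10.8% at E12.5, against 24.3 and 29.3% in Cdh5-gated barcodes there, 22.2 and 19.0% at E16.5, and 44.3% (exact 95% interval 41.2 to 47.5%) and 49.6% (47.4 to 51.8%) in the wells. The Col1a1-gated share at E16.5 differed between the libraries, at 9.57% (6.40 to 13.6%) and 19.9% (14.01 to 26.9%). In Col1a1-gated barcodes of the wells it was 19.3% (16.1 to 22.8%) and 18.3% (16.7 to 19.9%), and in Cdh5-gated barcodes 31.7 and 32.4%. In both wells the Tnnt2-gated share lay above the Col1a1-gated one by more than counting error. P3 is 1 sample, and no test across samples was possible.

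The 2 wells of P3 differed in all 10 genes. Over all kept barcodes each gene was at least 2-fold higher in well 2, with ratios from 2.14 for Dnajb1 to 5.79 for Hspa1a, beside 22.1% of 12995 genes with at least 100 UMIs, whose median ratio was 1.35. The ratio of Dnajb1 was 1.76 under the study's mitochondrial ceilings and 1.96 after thinning. Fos was at 327 CPM in well 1 and 915 CPM in well 2, Egr1 at 79.9 and 290 CPM, and Fosb at 30.3 and 171 CPM, a ratio of 5.63 (5.40 to 5.86 by counting error). Well 2 also held a larger share of Col1a1-gated barcodes (22.7% against 11.1%) and a smaller share of Tnnt2-gated barcodes (63.5% against 71.9%), and its median barcode had 10457 UMIs against 17718. Malat1 went from 13694 CPM in well 1 to 16867 CPM in well 2 over all kept barcodes, from 9336 to 14181 CPM in Cdh5-gated, from 9160 to 15547 CPM in C1qa-gated, from 13566 to 15627 CPM in Tnnt2-gated and from 19914 to 20642 CPM in Col1a1-gated barcodes. The labels list 2 samples of P3, and the study's methods describe a batch difference at this stage, so that well and batch cannot be told apart.

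Within each class well 2 was still the higher one for all 10 genes, with every counting interval above 1, beside median ratios over all genes of 1.20 in Tnnt2-gated, 1.28 in Cdh5-gated, 1.18 in Col1a1-gated and 1.04 in C1qa-gated barcodes. Atf3 in Tnnt2-gated barcodes and Ier2 and Dnajb1 in Cdh5-gated barcodes lay under the median gene of their class. In Tnnt2-gated barcodes 8 of the 10 genes were at least 2-fold higher, beside 13.8% of genes, with Hspa1b at 5.72, Hspa1a at 4.63, Fosb at 3.37 and Fos at 2.14. Atf3 was the closest, at 33.5 and 38.5 CPM (ratio 1.15). Some of these levels lay near those of globin-gated barcodes, described further on as a measure of background. Junb was at 14.3 and 35.9 CPM in Tnnt2-gated barcodes of wells 1 and 2, against 9.91 and 35.9 CPM in globin-gated ones. Ier2 was at 13.8 and 32.0 against 4.25 and 21.8 CPM, and Fos further off at 149 and 318 against 7.08 and 67.2 CPM. The part of free RNA in these ratios was not tested. In Cdh5-gated barcodes 5 genes were at least 2-fold higher, beside 16.3%, with Hspa1a at 65.9 and 307 CPM (ratio 4.65) and Ier2 at 311 and 381 CPM (a ratio of 1.16 to 1.29 by counting error).

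In Col1a1-gated barcodes 5 genes were at least 2-fold higher, beside 11.4%, led by Fosb at 65.1 and 327 CPM (ratio 5.03) and Atf3 at 52.5 and 187 CPM (ratio 3.56). In C1qa-gated barcodes 6 of the 9 genes with enough UMIs were, beside 6.60%, and Atf3 went from 85.6 to 583 CPM (ratio 6.82, 5.32 to 8.85). The largest ratio was that of Fosb in the mesenchymal class and Atf3 in the macrophage class. In the cardiomyocyte class the counting intervals of Hspa1b (5.12 to 6.41) and Hspa1a (4.17 to 5.14) overlapped. In the endothelial class the counting intervals of Hspa1b (4.203 to 5.52), Hspa1a (4.24 to 5.10) and Fosb (3.81 to 4.66) overlapped. Neutrophil and lymphocyte markers summed to 86.8 CPM in well 1 and 2.60 CPM in well 2, and fibroblast markers to 1547 and 4620 CPM. The part of these cells in the ratios over all barcodes was not tested.

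**Figure D4:**
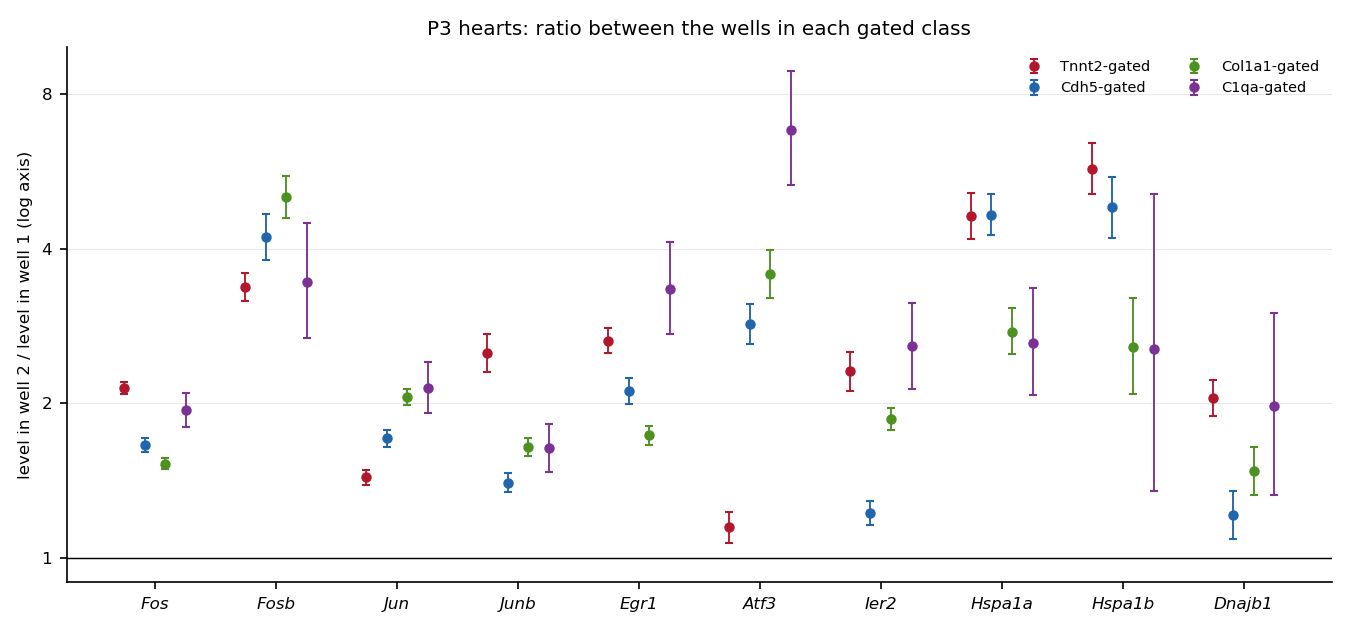
Ratio of the level in P3 well 2 to that in well 1 for each gene and gated class (log axis); bars are exact 95% intervals of the counts and cover counting error only, since P3 is 1 sample. All points lie above 1, from 1.15 for Atf3 in Tnnt2-gated barcodes to 6.82 for Atf3 in C1qa-gated barcodes.

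Single barcodes were compared after each was thinned to 2000 UMIs. In the thinned barcodes at least 3 of the 10 genes were seen in 7.47 and 9.78% of Tnnt2-gated barcodes of the E12.5 libraries, 6.64 and 8.08% of those of E16.5, and 4.77 and 16.7% of those of P3 wells 1 and 2. For Col1a1-gated barcodes the libraries of E12.5 gave 26.8 and 28.7%, those of E14.5 49.3 and 46.5%, those of E16.5 63.8 and 62.6%, and wells 1 and 2 gave 63.5 and 80.9%. In Cdh5-gated barcodes the shares were 16.8 and 14.6% for E12.5, 48.1 and 46.7% for E16.5, and 47.1 and 74.1% for the wells. The E8.5 and E10.5 shares were at most 2.61% in these 3 classes. The share of all kept barcodes with a Fos UMI at E8.5 was 12.45% before thinning and 1.39% after it.

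Barcodes with a Fos UMI were set beside those without one for some of the other genes. Among Col1a1-gated barcodes of E16.5, Egr1 was seen in 65.8 and 66.0% of barcodes with Fos and in 34.5 and 37.9% of those without it. Fosb was seen in 27.7 and 32.0% against 6.76 and 12.9%. In Tnnt2-gated barcodes of E16.5 the shares for Egr1 were 36.6 and 36.2% against 19.8 and 19.8%. Each pair of shares came apart in both libraries by more than their exact 95% intervals.

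In the cardiomyocyte class Hspa1a was seen more often beside Jun. At E16.5 it was found in 8.88 and 7.76% of Tnnt2-gated barcodes with Jun against 2.80 and 2.58% without, but in 4.59 and 5.03% of those with Fos against 3.46 and 3.06% without, where the intervals overlapped. Hspa1b was seen in 8.21 and 6.72% of Tnnt2-gated barcodes with Hspa1a at E16.5, against 0.816 and 0.739% without. In Cdh5-gated barcodes of E16.5 Hspa1a was in 2.35 and 4.60% of barcodes with Fos and 4.55 and 8.97% of those without, with overlapping intervals.

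**Figure D5:**
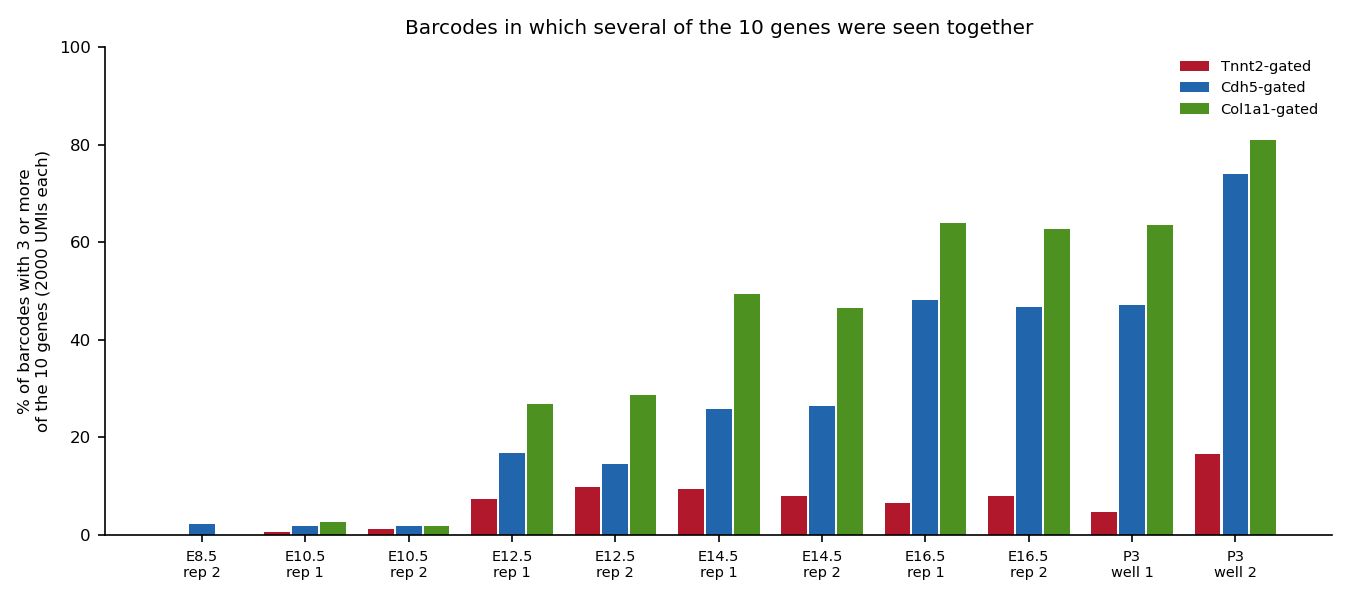
Percent of barcodes, each thinned to 2000 UMIs, in which at least 3 of the 10 genes were seen, by library or P3 well and gated class. The Col1a1-gated share goes from 26.8 and 28.7% at E12.5 to 63.8 and 62.6% at E16.5, while the Tnnt2-gated share is 6.64 and 8.08% at E16.5.

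Free RNA gives every droplet some UMIs of genes that its cell does not use. Globin-gated barcodes, in which over 50% of UMIs come from globin genes, are of red cell precursors, which shut down other transcription, and they serve here as a further measure of background (medians of 7821 to 30569 UMIs). In them Fos was at 7.08 to 16.4 CPM in the embryonic heart libraries and P3 well 1, and at 67.2 CPM in well 2, against at least 98.7 CPM in every gated class of the hearts. Hspa1a was at 0.125 to 4.45 CPM there, apart from 20.2 CPM in E14.5 replicate 1 and 8.52 CPM in well 2. In E14.5 replicate 1 this lies near the 9.45 to 23.2 CPM of the gated classes. In thinned globin-gated barcodes a Hspa1a UMI was seen in 0.467% of them in that library, against 1.65% of Tnnt2-gated ones (median 17512 UMIs). Barcodes with at most 100 UMIs, whose RNA is mostly free, held 99.6 to 211 CPM of Fos in the embryonic heart libraries, close to or above the 98.7 to 120 CPM of Tnnt2-gated barcodes. At E16.5 such barcodes held 86.7 and 97.6 CPM of Jun, against 88.9 and 99.5 CPM in Tnnt2-gated ones. For Egr1 the values were 147 and 151 against 138 and 143 CPM. Ier2 was at 106.7 CPM in both libraries, against 36.9 and 40.7 CPM. Globin-gated barcodes of E16.5 held at most 7.3 CPM of Jun, Egr1 and Ier2. Junb at E14.5 was at 22.5 and 13.98 CPM in globin-gated against 26.1 and 24.5 CPM in Tnnt2-gated barcodes. The part of free RNA in the Tnnt2-gated levels was not tested.

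Further genes of both kinds were counted as lists. Of 40 further immediate early and dissociation genes, 39 could be tested, and from E12.5 to E16.5 29 of them rose and 2 fell in Cdh5-gated barcodes, with a median log2 fold change of 0.70, beside a median of 0 for all genes and the shares of all genes called in each direction given above for every comparison. In Col1a1-gated barcodes 23 rose and 4 fell (median 0.59), and in Tnnt2-gated barcodes 9 rose and 15 fell (median -0.26). Dusp1, a phosphatase that switches off MAP kinases, rose by 1.83 ± 0.10 in Cdh5-gated barcodes, and Nr4a1, a nuclear receptor gene, by 2.37 ± 0.13 in Col1a1-gated barcodes. In C1qa-gated barcodes 15 rose and none fell, Dusp1 by 3.30 ± 0.24. Over all kept barcodes 38 of them could be tested, of which 6 rose and 10 fell from E12.5 to E14.5 (all genes 23.7 and 23.3%), where 4 of the 7 immediate early genes rose and 1 fell, and 13 rose and 2 fell from E14.5 to E16.5 (all genes 21.3 and 18.2%). Between classes, 30 of the 39 were lower and 4 higher in Tnnt2-gated barcodes (median -2.03, all genes 0.22). The largest log2 fold changes there were those of Ctgf, at 4.82 ± 0.37, and Klf2, at -4.78 ± 0.09. Ctgf was also higher in Col1a1-gated barcodes, at 4.46 ± 0.47. In both contrasts the mean of the others holds the low C1qa-gated level of Ctgf, which enlarges its fold. In Cdh5-gated barcodes 20 were higher and 8 lower (2 and 4 of the 7 genes, 30.6 and 17.9% of all genes). In Col1a1-gated barcodes 15 were higher and 17 lower (6 and 1 of the 7, 32.2 and 23.5% of all genes). In C1qa-gated barcodes 30 were higher and 1 lower (median 1.64, all genes -0.50). Zfp36, which destabilises mRNAs, was at 3.95 ± 0.10 there, and Ctgf, the lower one, at -10.0 ± 2.16.

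Of 26 further heat shock and chaperone genes, all tested, 3 rose and 14 fell from E12.5 to E16.5 in Cdh5-gated barcodes (median -0.26), 2 rose and 10 fell in Col1a1-gated barcodes (median -0.20), and 6 rose and 8 fell in Tnnt2-gated barcodes (median -0.06). Of all genes 18.7% rose and 19.1% fell in the first class, 19.7% and 16.8% in the next, and 26.7% and 26.8% in the last. The co-chaperone gene Fkbp4 fell by 0.95 on the log2 scale in Cdh5-gated and by 0.65 in Col1a1-gated barcodes. The largest changes that passed were rises, of Hspa2 by 2.14 ± 0.31 in Cdh5-gated and of Serpinh1 by 0.67 ± 0.08 in Col1a1-gated barcodes. Between classes, 20 of the 26 were higher in Tnnt2-gated barcodes (median 0.86, with 39.5% and a median of 0.22 for all genes), led by Dnaja4 and by the small heat shock protein genes Hspb1 and Cryab at log2 fold changes of 4.74 ± 0.10 and 4.67 ± 0.07. From E14.5 to E16.5 over all kept barcodes 6 of the 26 rose and 5 fell (median -0.01), near the shares of 21.3 and 18.2% of all genes, with Bag3, a co-chaperone of HSP70, higher by 0.55 ± 0.06. Of 12 endoplasmic reticulum and integrated stress genes, 4 rose and 5 fell in Tnnt2-gated (median -0.46), 4 rose and 3 fell in Cdh5-gated (median 0.12) and 5 rose and 3 fell in Col1a1-gated barcodes (median 0.08) from E12.5 to E16.5, where the medians over all genes were 0.00, 0 and 0.01 and the shares of all genes are those just given. Ddit4 rose by 0.87 ± 0.09 in Tnnt2-gated and by 1.16 ± 0.11 in Cdh5-gated barcodes.

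Likeness of pattern was described by Pearson's r of log2(CPM + 1) over the 39 sums of library or well and class with at least 20 barcodes, among 9905 genes with a mean of at least 5 CPM. The sums share libraries, so that r carries no test. Fos was most like Fosb (r = 0.970), Btg2 (0.945) and Anxa4 (0.944), and Junb was most like Btg2 (0.965) and Dusp1 (0.959). Jun was most like Dusp1 (0.952), Egr1 like Egr2 (0.911), Atf3 like Ier5 (0.933) and Ier2 like Ccnl1 (0.951). Hspa1a was most like Tapbp (0.888), and Hspa1b, after the ribosomal pseudogene Rps18-ps3 (0.867), was most like Hspa1a (0.815). Dnajb1 was most like Slc39a3 (0.862), and its r was 0.559 with Hspa1a and 0.807 with Ier2.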

How the data were processed

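Single-cell RNA sequencing libraries of 6 stages were read as the UMI counts per gene and barcode that the authors deposited, unnormalized, from 10 matrices of 27998 genes. The submitters' processing notes name Cell Ranger 2.1.1, Seurat 3.1.1 and mm10, per the file headers Cell Ranger was 3.1.0 for embryonic stages and 3.0.0 for P3. The labels name trypsin and 3' v2 chemistry, the paper collagenase II and v3. The matrix of E8.5 replicate 1 was not analysed here. The 10 genes, the gene lists and the tests were chosen with earlier results of these data known.

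Of 80741 barcodes with at least 2000 UMIs, 13330 with under 1% mitochondrial UMIs were left out. Classes were those passing exactly 1 gate: Tnnt2 at 10 or more UMIs per 10000, Cdh5 at 2 or more UMIs, Col1a1 at 2 or more UMIs and 3 or more per 10000, and C1qa at 2 or more UMIs. This put 23990, 4790, 5802 and 376 barcodes in a class, 697 passed several gates, and no doublet caller was run. Depth per matrix was 52287206 to 208521528 UMIs in kept barcodes. Intervals are exact at 95% and cover counting error only.

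UMIs were summed per library and class (at least 10 barcodes) and tested with edgeR 4.0.16 (TMM, filterByExpr, quasi-likelihood F test, R 4.3.3). Within each comparison p-values were adjusted by Benjamini-Hochberg over all genes tested, with calls at 0.05. The fit held the 6 embryonic heart libraries, without a replicate block. Replicate differences correlated at 0.1089, 0.1383 and 0.1104 between stages over 15655 genes. The labels do not tie a library of a given stage to a library of another, so these values do not establish a pairing. Fits with library or replicate number as a block were run beside the main fit, and blocked values are given where a call changed. Other tissues and single samples were described without a test. Other settings were DESeq2 1.42.0, no low-count filter, other barcode filters and gates, thinning, blocks and libraries left out. The tests were tried on simulated data. The 10 genes are named whatever their values. Other genes named are up to 4 per list and comparison with the largest changes that passed, from lists of 40 immediate early, 26 chaperone and 12 stress genes, and 3 neighbours by r per gene.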

Additional observations from a re-analysis of the deposited data

Results flagged for a closer look

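The change over E12.5, E14.5 and E16.5 differed between the gated classes in 8 of the 10 genes, beside 41.5% of all genes. The test was edgeR's interaction test with Benjamini-Hochberg adjustment over 14664 genes. The adjusted p was 7.99e-12 for Fos, 1.35e-11 for Fosb, 1.53e-10 for Junb and 4.6e-10 for Ier2. It was 1.29e-07 for Atf3, 3.42e-07 for Jun, 1.3e-05 for Egr1 and 0.0414 for Hspa1a. The call of Hspa1a was lost in the settings given above. For Fos the log2 fold change from E12.5 to E16.5 was 0.02 ± 0.10 in Tnnt2-gated, 2.07 ± 0.10 in Cdh5-gated and 2.04 ± 0.10 in Col1a1-gated barcodes. For Atf3 it was -0.64 ± 0.09 in Tnnt2-gated barcodes and 1.68 ± 0.22 in C1qa-gated barcodes, of which the E12.5 arm is 1 sum of 13 barcodes. The C1qa-gated value was 1.36 after thinning and was not called there. Replicate 2 of E12.5, which was not fitted, held 61.8 CPM of Atf3 in this class against 199 CPM in replicate 1.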

How the results depend on the processing

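Of the single-gene results under other settings, 1730 kept their side of the threshold, 44 lost and 35 gained the call. A change of direction was counted only where a setting called the gene, and the interaction has no direction. Ier2 from E14.5 to E16.5 was the result counted as reversed, to -0.030 without TMM scaling (chosen after seeing the data). Genes called among the 10 numbered 8 for the stage change in Tnnt2-gated barcodes with each class fitted by itself (5 as reported, 5 to 7 in the other settings), and 5 after thinning in C1qa-gated barcodes (8 as reported, 8 to 10 in the other settings). The causes were not tested. For single-class fits, left-out libraries and blocks, the share of all genes called is mostly not given. Their counts therefore do not separate the 10 genes from the whole fit. With 1 library left out, 9 to 10, 6 to 8, 8 to 9 and 8 to 9 genes were called between classes (Tnnt2, Cdh5, Col1a1 and C1qa), 5 to 7, 8 to 8, 8 to 10 and 8 to 10 for the stage change in them, 7 to 10 for the interaction, and 7 to 8 and 6 to 8 for the successive stages. With library or replicate number as a block, 9, 7, 9 and 9 genes were called between classes, 5, 8, 9 and 8 for the stage change, 9 for the interaction and 8 and 8 for the steps. The block changed no call other than those of Dnajb1 and Ier2 given above.

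The P3 ratio of well 2 over well 1 was 2.97 for the 7 immediate early genes together, and 2.56 under the study's mitochondrial ceilings, 2.51 after thinning and 2.80 as CPM of UMIs outside the mitochondrial genome. For Hspa1a and Hspa1b together it was 5.68, and 4.57, 4.75 and 5.36 in the same order. For Dnajb1 it was 2.14, and 1.76, 1.96 and 2.01. The last setting was added after seeing the data.

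Over all genes, thinning lowered the calls from 9190 to 5953 (Tnnt2), 7113 to 3689 (Cdh5), 8163 to 4504 (Col1a1) and 6293 to 3615 (C1qa) between classes, from 7840 to 3939, 5541 to 1745, 5355 to 1961 and 340 to 92 for the stage change, from 6084 to 1949 for the interaction and from 7362 to 3841 and 6188 to 2964 for the steps, and without E14.5 replicate 1 the steps had 4658 and 4123. Other scaling moved the median of all genes, from 0.22 to -0.01 in the Tnnt2 contrast with DESeq2, and, without TMM scaling, to -0.19 from E14.5 to E16.5 and to -0.23 and -0.14 for the stage change in Tnnt2-gated and Col1a1-gated barcodes. The percent of calls that were higher went from 63.1 to 49.4 (Tnnt2) and 63.1 to 50.3 (Cdh5) between classes with DESeq2. Without TMM scaling it went from 57.8 to 70.7 (Col1a1), and for the stage change from 49.9 to 26.6 (Tnnt2), 54.0 to 33.9 (Col1a1) and 67.1 to 40.4 (C1qa, 55.2 with DESeq2), and from 53.9 to 22.1 from E14.5 to E16.5.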

Other observations

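Tnnt2-gated barcodes with under 1% mitochondrial UMIs, which were left out except where the mitochondrial floor was dropped, held less of the 7 immediate early genes together. The 7 genes summed to 73.6 and 63.1 CPM in 883 and 1177 such barcodes at E12.5, against 483 and 531 CPM in the kept ones. At E14.5 the sums were 66.7 and 79.3 CPM in 581 and 441 barcodes, against 506 and 456 CPM. At E16.5 they were 61.1 and 44.5 CPM in 340 and 241 barcodes, against 415 and 446 CPM. These barcodes had medians of 4179 to 5211 UMIs, against 13547 to 25214 UMIs in the kept ones, and their Tnnt2 level at E12.5 was 5005 and 4612 CPM, against 3645 and 3465 CPM. Atf3 was closer than the sum, at 17.9 and 14.99 CPM in such barcodes of E12.5 against 41.01 and 39.95 CPM in the kept ones, at 17.3 and 23.03 CPM against 27.04 and 27.3 CPM at E14.5, and at 13.4 and 9.36 CPM against 21.1 and 23.4 CPM at E16.5. The part of depth in the difference was not tested.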
